A study of Homo sapiens with 2 samples.

Results

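The genes described here encode the proteins that carry out and steer pre-mRNA splicing: the SR proteins, the hnRNPs, the U2AF, SF3A and SF3B proteins of the 3′ splice site, the SNRP proteins of the spliceosomal particles and the PRPF factors. They were taken by gene symbol, as every record whose name begins with SRSF, HNRNP, SF3A, SF3B, U2AF, PRPF or SNRP with 1 record of such a name left out, a rule that uses no measured value although it was drawn up with earlier results of these data known. This gave 66 genes among 11420 gene records, with 10 in the SRSF, 20 in the HNRNP, 3 in the SF3A, 5 in the SF3B, 4 in the U2AF, 13 in the PRPF and 11 in the SNRP family. The libraries came from HCT116, an established human colorectal carcinoma cell line, infected with lentivirus carrying either an shRNA against LAST or a control shRNA. LAST is a long noncoding RNA induced by c-Myc, and the comparison asks which transcripts differ in level once it is depleted. Total RNA was taken 96 hr after infection, and each group consisted of 1 RNA-seq library, so no difference below has a replicate check and none carries an SD or a p-value. A single shRNA against LAST was sequenced, so effects of LAST and of that shRNA sequence cannot be told apart. LAST itself was not analysed here, and its level therefore does not check the labels.

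Splicing removes introns in a particle, the spliceosome, that is built anew on each intron. The U1 particle pairs with the 5′ splice site, the U2 auxiliary factor and the U2 particle recognise the 3′ splice site and the branch point, and the U4/U6.U5 tri-snRNP then joins and is rearranged into the catalytic form. SR proteins mostly bind exons and recruit these particles, whereas hnRNPs coat the nascent transcript and often oppose them, so the balance of the 2 groups shapes alternative splicing. Many of these genes also control their own level by splicing in an exon that sends the transcript to nonsense-mediated decay.

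The values are FPKM, fragments per kilobase of transcript scaled to the size of the library, which correct for length and so allow levels of different genes to be set side by side. Differences are given as log2(FPKM + 1) in the LAST shRNA library minus that in the control shRNA library, and a gene is called lower or higher here at -0.58 or below or at 0.58 or above. The scale and the lower threshold are those of the study, and the upper threshold is its mirror, set here. The table summed to 155390 FPKM in the LAST shRNA library and 154798 in the control shRNA library, and the median difference over all records was 0.01. Of 12 epithelial and colorectal markers, 8 were measured, with a summed level of 897 FPKM in LAST shRNA cells and 848 in control shRNA cells, and none passed the threshold. KRT18, an epithelial keratin, had 294 FPKM in LAST shRNA cells and 271 in control shRNA cells. Markers of other lineages were few and mostly low, and all 7 that were measured were higher in the LAST shRNA library, CD68 (0.72) and TUBB3 (1.58) past the threshold. For blood 1 of 8 was measured (CD68, 3.26 FPKM in LAST shRNA cells and 1.58 in control shRNA cells), for stroma 2 of 7 (summed 3.15 FPKM in LAST shRNA cells and 2.23 in control shRNA cells) and for endothelium 1 of 6 (ESAM, 1.44 FPKM in LAST shRNA cells and 1.25 in control shRNA cells). For neural markers 3 of 8 were measured, with a summed 33.7 FPKM in LAST shRNA cells and 14.2 in control shRNA cells, most of it TUBB3, a tubulin, at 23.0 FPKM in LAST shRNA cells and 7.03 in control shRNA cells. The part of these markers in the differences below was not tested. In bulk RNA, fewer cells of a kind and less RNA per cell cannot be told apart.

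Most of the splicing genes differed little between the libraries. All 66 had at least 1 FPKM in both libraries, and 59 stayed between the thresholds. The LAST shRNA library was lower for 4 genes, SRSF3, SRSF1, SNRPC and HNRNPA3, against 5.88% of all records that were lower, and higher for 3 genes, HNRNPF, HNRNPA1L2 and PRPF38A, against 6.80% of all records that were higher. Together 7 of 66, or 10.6%, passed in either direction, against 12.7% of all records. With 1 added to each FPKM the share was thus close to that of the whole table. With a smaller added value more of all records passed, while the splicing genes that passed stayed the same 7. The median difference of the 66 was -0.09, and 43 of them (65.2%) lay below 0, compared with 48.7% of all records. Among genes with a mean of at least 10 FPKM, 39 of 55 splicing genes (70.9%) lay below 0, compared with 52.7% of 3490 records. Of these 55 genes 4 were lower, against 6.10% of such records, and 1 was higher, against 6.02%. The summed level of all 66 genes was 2774 FPKM in LAST shRNA cells and 3027 FPKM in control shRNA cells, a ratio of 0.916, or 1.78% of the whole table in LAST shRNA cells and 1.96% in control shRNA cells. Differences under 0.1 in either direction were found for 22 of the 66 (33.3%) and for 28.9% of all records.

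**Figure D1:**
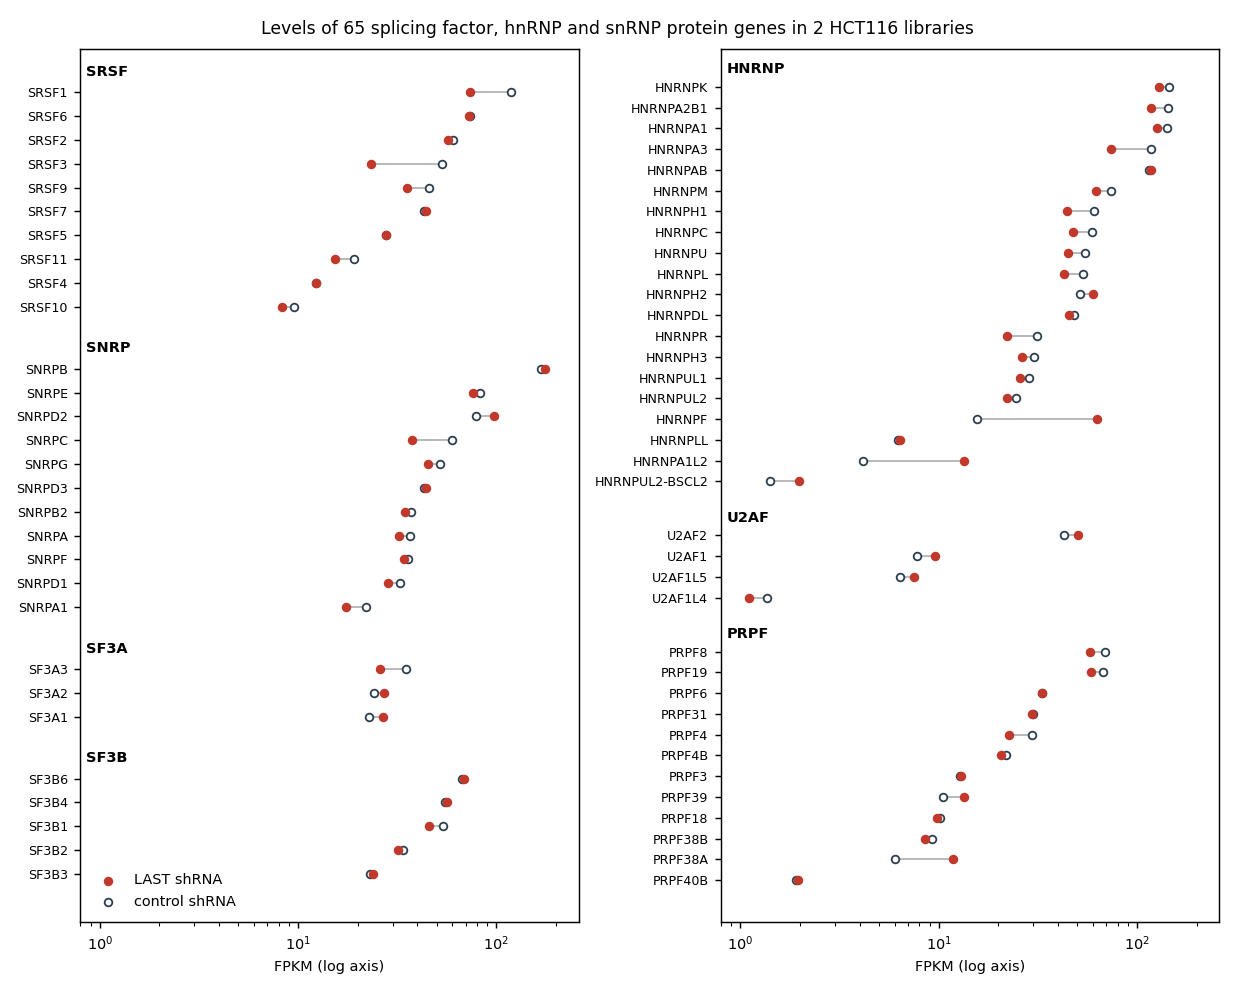
FPKM of 65 of the 66 genes in the LAST shRNA library and in the control shRNA library (log axis), grouped by family. Most genes have nearly the same level in both, and HNRNPF stands furthest apart at 63.1 FPKM in LAST shRNA cells against 15.7 in control shRNA cells.

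**Figure D2:**
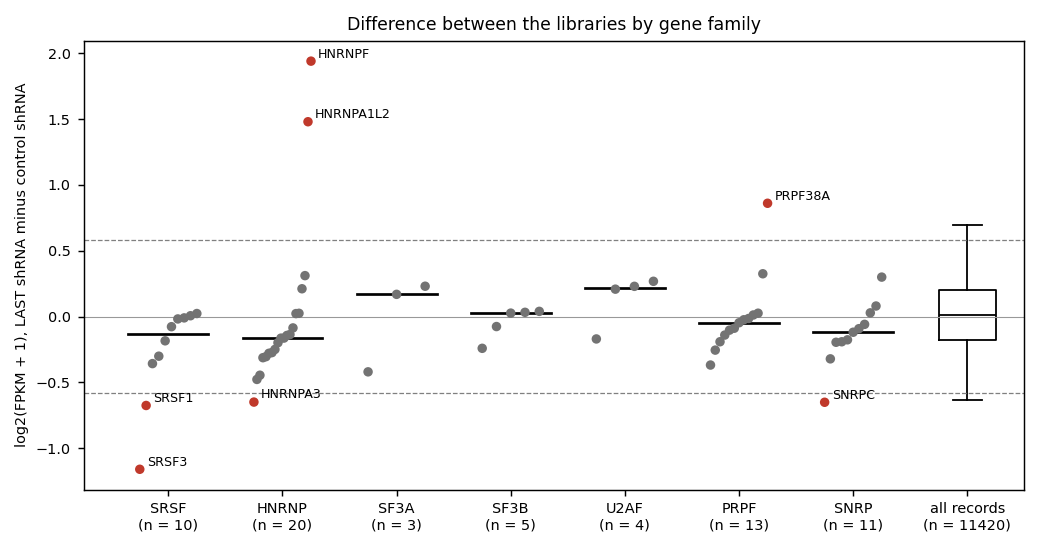
Difference in log2(FPKM + 1), LAST shRNA minus control shRNA, for each gene by family, beside a box of all 11420 records (quartiles, whiskers at the 5th and 95th percentiles) and lines at -0.58 and 0.58. Of the 66 genes 4 lie at or below the lower line and 3 at or above the upper line.

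The 7 genes past the threshold have the largest single differences, and the 5′ end of their mRNA was read for the element GGAG. The lean of the whole set below 0 is not theirs alone: of the 43 genes below 0, only 4 passed the lower threshold. CNBP, an RNA-binding protein studied together with LAST, is known for binding G-rich RNA elements. It was measured at 95.5 FPKM in LAST shRNA cells and 89.5 in control shRNA cells, a difference of 0.09. CCND1, the cyclin D1 gene that the study follows, was at 126 FPKM in LAST shRNA cells and 216 in control shRNA cells, a difference of -0.78. The first GGAG in the 5′ UTR of the longest coding transcript (GENCODE release 29, GRCh38, sense strand) is shown with its surroundings, with GGAG in capitals, for the 5 of the 7 genes that hold one. The windows start at base 33 from the transcript start in SRSF3, base 11 in SRSF1, base 44 in SNRPC, base 84 in HNRNPF and base 10 in PRPF38A.
SRSF3: ttggtgttgggccGGAGgaaagcgggaaga
SRSF1: aaggcgccattttGGAGgggccgcgGGAGa
SNRPC: tggcccccatgcaGGAGcGGAGagcgggtt
HNRNPF: gtccgaggctgctGGAGtgccgtgagcagg
PRPF38A: ataggcgacgcggGGAGcggaagcccttta
The 5′ UTRs of HNRNPA3 (51 bases) and HNRNPA1L2 (68 bases) held no GGAG. The 4 letters are common: they occurred in the 5′ UTR of 79.0% of 11091 records and of 86.2% of the splicing genes (56 of 65). By side of the threshold, 3 of the 4 lower genes, 2 of the 3 higher genes and 51 of the 58 annotated genes between the thresholds had a match. A match describes the letters and is not a binding site.

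SR proteins were the family with the lowest ratio of summed levels, 369.9 FPKM in LAST shRNA cells and 463 in control shRNA cells, a ratio of 0.798. Of 10 members 2 were lower, against 5.88% of all records, none was higher, against 6.80%, and 8 lay below 0, against 48.7%, with a median difference of -0.13. In a family of 10 genes such shares rest on few genes. SRSF3, a small SR protein with a single RNA-recognition motif that also acts in mRNA export, had 23.3 FPKM in LAST shRNA cells and 53.3 in control shRNA cells. That is 2.29-fold lower with LAST shRNA, a difference of -1.16 and the lowest of the 66 genes. Its record lies on chromosome 6 from 36562130 to 36573377 (hg19, plus strand). Within the family it was the 7th most abundant member in LAST shRNA cells and the 4th in control shRNA cells. SRSF1, the founding SR protein and a known oncogene in other settings, had 73.7 FPKM in LAST shRNA cells and 118 in control shRNA cells. It was 1.61-fold lower with LAST shRNA (-0.68) and remained the most abundant SR transcript in both libraries, at 19.9% of the family in LAST shRNA cells and 25.5% in control shRNA cells. The SRSF1 record (chromosome 17 from 56080721 to 56084707, minus strand) overlaps RP11-159D12.5 on the same strand, which had 8.27 FPKM in LAST shRNA cells and 9.89 in control shRNA cells.

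The other SR proteins differed less. SRSF1 and SRSF3 made up 79.8% of the difference between the family sums, and without them the sums were 273 FPKM in LAST shRNA cells and 292 in control shRNA cells, a ratio of 0.935. Both were picked by their values, so a higher ratio follows from the choice. SRSF9, a short relative of SRSF1, had 35.3 FPKM in LAST shRNA cells and 45.5 in control shRNA cells (-0.36). SRSF11 followed with 15.4 FPKM in LAST shRNA cells and 19.2 in control shRNA cells (-0.30). For SRSF10, which represses splicing when dephosphorylated, the levels were 8.32 FPKM in LAST shRNA cells and 9.59 in control shRNA cells (-0.18). These 3 genes were modestly lower with LAST shRNA and did not reach the threshold. The abundant SRSF6 and SRSF2, both regulators of alternative exons, were nearly level. SRSF6 had 72.6 FPKM in LAST shRNA cells and 73.6 in control shRNA cells. SRSF2 had 57.3 FPKM in LAST shRNA cells and 60.5 in control shRNA cells. SRSF5 (27.6 FPKM in LAST shRNA cells, 27.8 in control shRNA cells) and SRSF4 (12.3 FPKM in both) were as close. SRSF7, the SR protein most similar to SRSF3 in its RNA-recognition motif, had 44.0 FPKM in LAST shRNA cells and 43.3 in control shRNA cells. The ratio of SRSF3 to SRSF7 transcript level was therefore 0.529 in LAST shRNA cells and 1.23 in control shRNA cells, so their order was the opposite in the 2 libraries.

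The hnRNPs held the highest difference of the 66 genes, that of HNRNPF, and 1 of the 4 lower genes, HNRNPA3. Of 20 members 1 was lower and 2 were higher, near the 5.88% and 6.80% of all records, and 14 lay below 0, against 48.7% of all records. The median was -0.16, with summed levels of 1092 FPKM in LAST shRNA cells and 1205 in control shRNA cells. HNRNPF, which binds runs of guanosines near splice sites and poly(A) signals, had 63.1 FPKM in LAST shRNA cells and 15.7 in control shRNA cells. It was 4.02-fold higher with LAST shRNA, a difference of 1.94, and was the 6th most abundant hnRNP there against the 17th in control shRNA cells. The HNRNPF record lies on chromosome 10 from 43881065 to 43904614 (minus strand). Its nearest relatives, which bind the same kind of sequence, did not share this. HNRNPH1 had 44.1 FPKM in LAST shRNA cells and 60.4 in control shRNA cells (-0.45). HNRNPH3 had 26.2 FPKM in LAST shRNA cells and 30.3 in control shRNA cells (-0.20). HNRNPH2 had 60.0 FPKM in LAST shRNA cells and 51.7 in control shRNA cells (0.21), and overlaps the read-through record RPL36A-HNRNPH2 on the same strand. Summed, HNRNPH1, HNRNPH2 and HNRNPH3 reached 130.4 FPKM in LAST shRNA cells and 142 in control shRNA cells, whereas with HNRNPF included the sums were 193 FPKM in LAST shRNA cells and 158 in control shRNA cells. The HNRNPF to HNRNPH1 ratio was 1.43 in LAST shRNA cells and 0.259 in control shRNA cells.

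Among the hnRNP A/B proteins, which often favour exon skipping, HNRNPA3 was the member past the threshold. It had 74.3 FPKM in LAST shRNA cells and 117 in control shRNA cells, 1.58-fold lower with LAST shRNA (-0.65). Its record lies on chromosome 2 from 178077291 to 178088686 (plus strand). HNRNPA2B1 was at 118 FPKM in LAST shRNA cells and 143 in control shRNA cells (-0.28). HNRNPA1, the best known repressor of the group, was at 126 FPKM in LAST shRNA cells and 141 in control shRNA cells (-0.16). HNRNPAB was level, at 117 FPKM in LAST shRNA cells and 115 in control shRNA cells (0.02). These 4 genes summed to 435 FPKM in LAST shRNA cells and 516 in control shRNA cells. HNRNPA0 had no record among the splicing genes, so the sums do not cover it. HNRNPA1L2, a single-exon retrocopy of HNRNPA1 on chromosome 13 from 53214921 to 53217931 (plus strand), had 13.4 FPKM in LAST shRNA cells and 4.16 in control shRNA cells, 3.22-fold higher (1.48). It is nearly identical to HNRNPA1 in sequence, so its level depends on how fragments that match both were assigned and is uncertain. The ratio of HNRNPA1L2 to HNRNPA1 was 0.106 in LAST shRNA cells and 0.0295 in control shRNA cells.

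The remaining hnRNPs lay between the thresholds. HNRNPK, which binds cytosine-rich RNA, was the most abundant hnRNP in both libraries, with 129 FPKM in LAST shRNA cells and 145 in control shRNA cells (-0.16). HNRNPR was the gene nearest the lower threshold from inside, at 22.1 FPKM in LAST shRNA cells and 31.2 in control shRNA cells (-0.48). HNRNPL, which binds CA repeats, had 42.6 FPKM in LAST shRNA cells and 53.2 in control shRNA cells (-0.31). HNRNPC, which binds uridine tracts, had 47.6 FPKM in LAST shRNA cells and 59.1 in control shRNA cells (-0.31). HNRNPU, HNRNPM, HNRNPUL1, HNRNPUL2 and HNRNPDL ranged from -0.27 to -0.09. HNRNPLL, known for regulating CD45 splicing in lymphocytes, was low and level at 6.38 FPKM in LAST shRNA cells and 6.25 in control shRNA cells. The read-through record HNRNPUL2-BSCL2 had 1.99 FPKM in LAST shRNA cells and 1.41 in control shRNA cells (0.31), the lowest level in the family, and shares its sequence with HNRNPUL2. Without HNRNPF and HNRNPA1L2, the family summed to 1016 FPKM in LAST shRNA cells and 1185 in control shRNA cells, a ratio of 0.857 against 0.906 with them. Both have the highest differences of the family and were left out after seeing the data. A lower ratio follows from that choice.

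**Figure D3:**
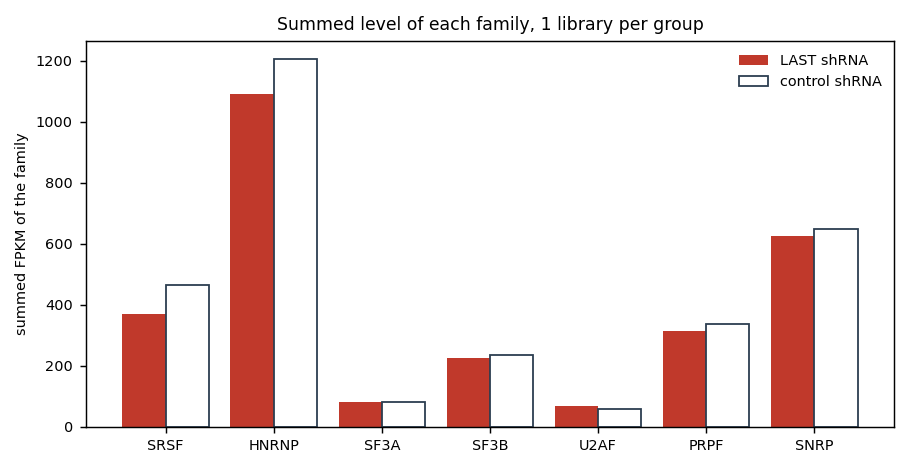
Summed FPKM of each family in the LAST shRNA library (filled bars) and the control shRNA library (open bars), from 0. The SRSF sum is 369.9 FPKM in LAST shRNA cells against 463 in control shRNA cells, and the U2AF sum is 68.8 in LAST shRNA cells against 58.5 in control shRNA cells.

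None of the U2AF, SF3A and SF3B genes, whose proteins define the 3′ splice site, passed the threshold. U2AF2, the large U2AF subunit that binds the polypyrimidine tract, had 50.6 FPKM in LAST shRNA cells and 43.0 in control shRNA cells (0.23). U2AF1, the small subunit that reads the AG at the intron end, had 9.58 FPKM in LAST shRNA cells and 7.79 in control shRNA cells (0.27). U2AF1L5 lies at the same hg19 locus and is a near-identical copy, so fragments could be split between both records. It had 7.52 FPKM in LAST shRNA cells and 6.38 in control shRNA cells (0.21), and the summed level of both was 17.1 FPKM in LAST shRNA cells and 14.2 in control shRNA cells. The ratio of U2AF2 to the U2AF1 record alone was 5.28 in LAST shRNA cells and 5.52 in control shRNA cells, so both records were higher by a like amount. It leaves out the fragments given to U2AF1L5 and so is not the ratio of large to small subunit transcript. U2AF1L4, a small-subunit paralogue, was the rarest of the 66 genes, with 1.11 FPKM in LAST shRNA cells and 1.37 in control shRNA cells (-0.17). The U2AF median difference was 0.22 and the ratio of sums 1.18. Without the overlapping U2AF1 and U2AF1L5 records only U2AF2 and the rare U2AF1L4 remained. Their median was 0.030, against 0.17 for the 3 SF3A genes, and rests on very few genes.

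SF3A and SF3B are the protein complexes that tether the U2 particle to the branch point. SF3A3 had 25.8 FPKM in LAST shRNA cells and 34.9 in control shRNA cells (-0.42). Its partners in the trimer were higher with LAST shRNA, within the thresholds. SF3A2 had 27.1 FPKM in LAST shRNA cells and 24.0 in control shRNA cells (0.17). SF3A1 had 26.8 FPKM in LAST shRNA cells and 22.7 in control shRNA cells (0.23). The ratio of SF3A3 to SF3A1 was 0.961 in LAST shRNA cells and 1.53 in control shRNA cells. SF3B1, which clamps the branch-point adenosine and is often mutated in myelodysplasia, had 45.5 FPKM in LAST shRNA cells and 54.0 in control shRNA cells (-0.24). The other SF3B genes were nearly level, and SF3B2, SF3B4, SF3B6 and SF3B3 had differences between -0.08 and 0.04. SF3B5 had no record among the splicing genes, so the family is not complete here. SF3B6, the subunit that touches the branch site, was the most abundant, with 68.9 FPKM in LAST shRNA cells and 67.4 in control shRNA cells. SF3B4, a partner of SF3B2, had 56.3 FPKM in LAST shRNA cells and 55.2 in control shRNA cells. SF3B2 had 32.0 FPKM in LAST shRNA cells and 33.8 in control shRNA cells. SF3B3, a scaffold subunit, had 23.8 FPKM in LAST shRNA cells and 23.1 in control shRNA cells. PHF5A, the small SF3B subunit outside these symbols, was an exception: it had 12.2 FPKM in LAST shRNA cells and 54.8 in control shRNA cells, 4.49-fold lower with LAST shRNA (-2.08).

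Among the SNRP proteins 1 of 11 was lower and none was higher, 9.09% in either direction against 12.7% of all records. The median was -0.12, and 8 lay below 0, against 48.7% of all records. The gene past the threshold was SNRPC, which encodes U1-C, the U1 protein that stabilises pairing with the 5′ splice site. It had 37.7 FPKM in LAST shRNA cells and 59.8 in control shRNA cells, 1.59-fold lower with LAST shRNA (-0.65). The record lies on chromosome 6 from 34725183 to 34741571 (plus strand). The other proteins particular to U1 or U2 differed less. SNRPA, the U1-A protein, had 32.5 FPKM in LAST shRNA cells and 36.8 in control shRNA cells (-0.18). SNRPA1, the U2 protein that pairs with SNRPB2, had 17.5 FPKM in LAST shRNA cells and 22.1 in control shRNA cells (-0.32). SNRPB2 itself had 34.7 FPKM in LAST shRNA cells and 37.1 in control shRNA cells (-0.09). All 4 lay below 0, and their sum was 122 FPKM in LAST shRNA cells and 156 in control shRNA cells, a ratio of 0.785. SNRPC made up 22.1 FPKM of this difference of 33.5 FPKM. SNRNP70, a U1 protein outside these symbols, was not lower, with 31.2 FPKM in LAST shRNA cells and 29.3 in control shRNA cells (0.09). The ratio of SNRPC to SNRPA was 1.16 in LAST shRNA cells and 1.62 in control shRNA cells.

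The 7 Sm proteins form the ring shared by the U1, U2, U4 and U5 particles, with 1 copy of each, and none passed the threshold. Their sum was 501 FPKM in LAST shRNA cells and 492 in control shRNA cells, a ratio of 1.02, and their median difference was -0.06. SNRPB, which encodes the SmB and SmB′ proteins, was the most abundant of all 66 genes, with 177 FPKM in LAST shRNA cells and 167 in control shRNA cells (0.08). SNRPD2 was the highest by difference, with 97.1 FPKM in LAST shRNA cells and 78.7 in control shRNA cells (0.30). SNRPD1 was the lowest, with 28.4 FPKM in LAST shRNA cells and 32.7 in control shRNA cells (-0.20). Although SNRPD1 and SNRPD2 enter the ring as a pair, the ratio of SNRPD2 to SNRPD1 transcript was 3.41 in LAST shRNA cells and 2.40 in control shRNA cells. SNRPE had 76.0 FPKM in LAST shRNA cells and 82.6 in control shRNA cells (-0.12). SNRPG had 45.2 FPKM in LAST shRNA cells and 51.7 in control shRNA cells (-0.19). SNRPF, which joins the ring with SNRPE and SNRPG, had 34.2 FPKM in LAST shRNA cells and 35.6 in control shRNA cells (-0.06). SNRPD3, the partner of SNRPB, had 44.1 FPKM in LAST shRNA cells and 43.2 in control shRNA cells (0.03).

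The PRPF factors act mostly in the tri-snRNP and in later steps. Of 13 members 1 was higher and none was lower, 7.69% in either direction against 12.7% of all records. Below 0 lay 9, against 48.7% of all records, with a median of -0.05 and sums of 313 FPKM in LAST shRNA cells and 337 in control shRNA cells. PRPF38A, which joins the spliceosome just before activation, had 11.8 FPKM in LAST shRNA cells and 6.05 in control shRNA cells, 1.95-fold higher with LAST shRNA (0.86). Its record lies on chromosome 1 from 52870236 to 52886511 (plus strand) and overlaps ZCCHC11 on the opposite strand, which had 3.47 FPKM in LAST shRNA cells and 3.89 in control shRNA cells. The paralogue PRPF38B had 8.55 FPKM in LAST shRNA cells and 9.26 in control shRNA cells (-0.10), so that the ratio of PRPF38A to PRPF38B was 1.38 in LAST shRNA cells and 0.653 in control shRNA cells. PRPF39, a U1-associated factor, was the nearest gene below the upper threshold, with 13.4 FPKM in LAST shRNA cells and 10.5 in control shRNA cells (0.33). PRPF8, the scaffold of the catalytic centre, had 57.6 FPKM in LAST shRNA cells and 68.9 in control shRNA cells (-0.26). PRPF19, the ubiquitin ligase of the PRPF19 complex, had 58.7 FPKM in LAST shRNA cells and 67.2 in control shRNA cells (-0.19). PRPF4, a U4/U6 protein, was the lowest of the family by difference, with 22.7 FPKM in LAST shRNA cells and 29.7 in control shRNA cells (-0.37). Its record overlaps CDC26 on the opposite strand, which had 21.2 FPKM in LAST shRNA cells and 11.3 in control shRNA cells, and without a stated use of strand the reads of both cannot be told apart. Its partner in U4/U6, PRPF3, was level at 13.0 FPKM in LAST shRNA cells and 12.9 in control shRNA cells (0.01). The tri-snRNP bridges PRPF6 (33.0 FPKM in LAST shRNA cells, 33.4 in control shRNA cells) and PRPF31 (29.4 FPKM in LAST shRNA cells, 29.9 in control shRNA cells) were also level. PRPF40B was low, at 1.95 FPKM in LAST shRNA cells and 1.90 in control shRNA cells (0.03). PRPF4B, a kinase, and PRPF18, a factor of the final catalytic step, lay at -0.09 and -0.05.

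Most of the genes past the threshold, but not all, shared a feature of structure. The share of the longest coding transcript that lies in its largest exon was at least 75% for 6 of the 7, namely SRSF3 (86.2%), SRSF1 (83.9%), HNRNPA3 (80.0%), HNRNPF (84.2%), HNRNPA1L2 (100%) and PRPF38A (79.5%), while SNRPC had 38.0%. The class at 75% was chosen after these values were seen. Of the 13 splicing genes in that class, 3 were lower, against 10.4% of all records of the class, and 3 were higher, against 11.4%. That is 46.2% of the 13, whereas 0 of 20 passed between 50% and 75%, and 1 of 32 (3.12%) passed under 50%, where 3.11% of all records were lower and 3.89% higher. Over all records, too, the share that passed was highest in this class: 21.9% of 2479, 14.1% of 3747 and 7.0% of 5088 passed at 75% or more, between 50% and 75%, and under 50%. With a mean of at least 10 FPKM, 7.49% of 534 records in the highest class were lower and 10.1% higher, 17.6% in all. The class also held 7 splicing genes that did not pass: HNRNPR (83.4%), SRSF10 (83.7%), SRSF2 (81.5%), SRSF6 (82.0%), HNRNPH2 (98.9%), SNRPD1 (90.9%) and SNRPF (75.5%). HNRNPA1L2 has 1 exon, as have GEMIN4, RNF113A and PCBP1 of the other splicing lists. The first 3 were higher with LAST shRNA, GEMIN4 and RNF113A from control levels of 0.137 and 0 FPKM. PCBP1, far more abundant, was level at 137 FPKM in LAST shRNA cells and 133 in control shRNA cells (0.05). The part of exon structure, of DNA carried over into a library, or of library quality in these differences was not tested.

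**Figure D4:**
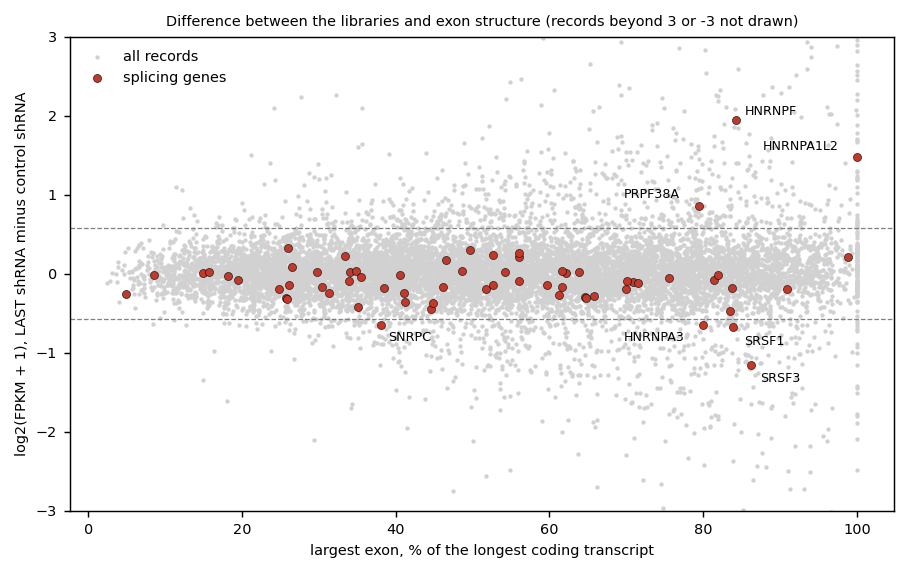
Difference in log2(FPKM + 1), LAST shRNA minus control shRNA, against the share of the longest coding transcript that lies in its largest exon (%), for all records (grey) and the splicing genes (red), with lines at -0.58 and 0.58; records beyond 3 or -3 are not drawn. At 75% or more, 6 of 13 splicing genes pass the threshold, 3 in each direction.

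GENCODE lists at least 1 transcript marked for nonsense-mediated decay for 37 of 65 annotated splicing genes (56.9%), against 44.1% of all records. All 10 SR genes and all 4 U2AF genes have one, as do 12 of 19 hnRNP genes. The share was below that of all records for the PRPF (4 of 13), SNRP (4 of 11), SF3A (1 of 3) and SF3B (2 of 5) genes. Of the genes past the threshold, SRSF3 and SRSF1 have at least 1 such transcript, whereas HNRNPA3, SNRPC and the 3 higher genes have none listed. The FPKM of a gene does not show how much of it was the decay form.

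The E-box CACGTG, which reads the same on both strands and is the element bound by c-Myc with its partner MAX, was looked for in the promoters of 57 matched splicing genes (RefSeq, GRCh38.p14, 250 bases before to 50 bases after each start). It occurred in 9 of their 76 promoters (11.8%), against 7.26% of 35116 promoters overall. The 9 count SF3B1 more than once for the same site. The overall promoters belong to 27305 gene names, more than the 11406 measured here, so these shares are not like for like. By gene, 7 of the 57 (12.3%) had a match, and no such share was taken over all genes. Of the 7 genes past the threshold, HNRNPA3 had a match, and it is printed below beside HNRNPM, one of the genes between the thresholds with a match, with the E-box in capitals. HNRNPA3 is at chr2:177212711-177212740 with the motif starting at -71 from the transcript start, and HNRNPM at chr19:8444921-8444950 with the motif at -42, both on the plus strand.
HNRNPA3: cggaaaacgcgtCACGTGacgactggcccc
HNRNPM: gttgcgtcgggtCACGTGggcgcgcaggcg
The other matched genes were HNRNPDL, HNRNPH2, HNRNPH3, HNRNPUL1 and SF3B1. Their differences ranged from -0.24 for SF3B1 to 0.21 for HNRNPH2, and HNRNPM had 62.2 FPKM in LAST shRNA cells and 74.1 in control shRNA cells (-0.25). The MYC transcript itself, named here after its value was seen, had 141 FPKM in LAST shRNA cells and 48.3 in control shRNA cells (1.53). The paper reports otherwise for HCT116 cells: its replicated RT-PCR found c-Myc mRNA unchanged once LAST was depleted, and the protein was unchanged too. The MYC difference here rests on 1 library per group, and the reason for this disagreement was not tested. The part of MYC in the levels of the splicing genes was not tested either.

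Other splicing genes, outside these symbols, were read from 7 lists drawn up by role, with 168 of 169 genes measured. They gave 11 lower and 12 higher genes. With 1 added to each FPKM, the 13.7% that passed were close to the 12.7% of all records. The median was -0.05, and 103 of 168 (61.3%) lay below 0, against 48.7% of all records. The lists differed mostly in a few single genes. The shares of single lists given below stand against 12.7% of all records past the threshold, 5.88% lower and 6.80% higher, and rest on few genes. Among 35 further snRNP proteins 14.3% passed, and 2 were lower, PHF5A and SNRNP27, a tri-snRNP protein with 8.48 FPKM in LAST shRNA cells and 14.0 in control shRNA cells (-0.66). The list had 3 higher genes. PDCD7, a protein of the minor spliceosome, had 13.7 FPKM in LAST shRNA cells and 3.46 in control shRNA cells (1.72). SMNDC1 and CHERP, both U2-associated, were at 0.62 and 0.59.

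Among 13 LSm proteins 1 was lower and 3 were higher, 30.8% against 12.7% of all records. The list also holds LSm proteins that act outside splicing, such as LSM10 and LSM11, so this is not a share of splicing proteins alone. Both are also counted in the pooled share of all lists. LSM10, which belongs to the U7 particle that processes histone mRNA, had 0.346 FPKM in LAST shRNA cells and 9.70 in control shRNA cells (-2.99). Its U7 partner LSM11 was higher, at 3.15 FPKM in LAST shRNA cells and 1.29 in control shRNA cells (0.86). LSM12 and LSM3, the second a member of the U6 ring, were at 1.25 and 0.79. Of 17 genes of the SMN complex and snRNP import, which assemble the Sm ring, GEMIN4 passed (5.88% of the list), with 4.23 FPKM in LAST shRNA cells and 0.137 in control shRNA cells (2.20).

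Among 30 measured PRPF19-complex and catalytic-step factors 2 were lower, CWC22 (-0.62) and CDC40 (-0.59), and 3 were higher, 16.7% in all. PPIL1, a spliceosomal prolyl isomerase, had 31.6 FPKM in LAST shRNA cells and 9.27 in control shRNA cells (1.67). BCAS2, a subunit of the PRPF19 complex, was at 0.68, and RNF113A had 2.67 FPKM in LAST shRNA cells and was listed at 0 in control shRNA cells. Of the 28 SR-related genes 10.7% passed. TNPO3, the importin that carries SR proteins into the nucleus, had 15.8 FPKM in LAST shRNA cells and 27.2 in control shRNA cells (-0.75). THRAP3 was also lower (-0.65), and SAP18 was higher (0.74). Of 40 other regulators 4 were lower and 1 was higher, 12.5% in all. The lower genes were MBNL2 (-0.81), the paraspeckle proteins PSPC1 (-0.74) and SFPQ (-0.60), and KHDRBS1, which encodes Sam68 (-0.63). PTBP3 was the higher gene (0.66). None of the 5 exon junction genes passed.

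**Figure D5:**
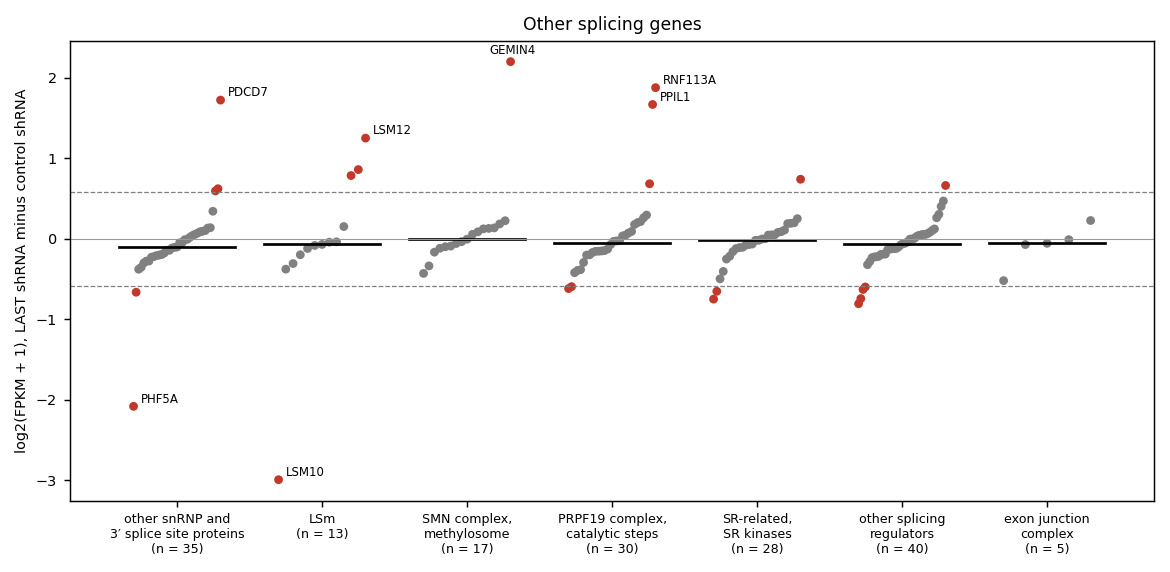
Difference in log2(FPKM + 1), LAST shRNA minus control shRNA, for the genes of the 7 lists of other splicing genes (red where past the lines at -0.58 and 0.58, black bars at the medians). Most points lie close to 0, and LSM10 at -2.99 and GEMIN4 at 2.20 lie furthest out.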

How the data were processed

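RNA-seq was measured in 1 LAST shRNA and 1 control shRNA library of HCT116 cells. The authors deposited 1 table of FPKM values per gene on hg19, made per the submitters' processing notes with cutadapt, FastQC, HISAT2 and StringTie, with versions not given in the sources used here. Every record had a higher value of at least 0.500 FPKM, so genes low in both libraries were already left out. Fragment counts could not be recovered: of 1707 low records at most 3 shared a ratio, so the depth is unknown and no counting interval is given. The KAPA kit is stranded, but whether strand entered the counting is not stated.

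Differences were log2(FPKM + 1), LAST shRNA minus control shRNA, with thresholds of -0.58 (the study's) and 0.58 (its mirror) and with no test. Exons, 5′ UTRs and transcript types came from GENCODE release 29, joined by gene identifier (11314 records, 99.1%; 65 of 66 genes). Named genes were those past the threshold, the most abundant, the extreme and the least different per family, and those nearest the threshold. Also named were all Sm, U1 and U2 SNRP genes, list genes past the threshold (up to 4 per direction), CCND1 and CNBP. Further genes of the families, and SNRNP70 and PCBP1 of the lists, are given for completeness. The gene symbols and the lists follow role and name, but were chosen with earlier results of these data known. The values of 2 genes with such symbols, 1 of them counted among the 66, are not reported here. Alternatives were pseudocounts of 0.1 and 0.5, rescaling, minimum levels, overlaps, exon structure and a threshold of 1. Scripts ran in Python 3.11.15 with numpy 2.4.6, pandas 2.3.3 and matplotlib 3.10.9 and were tested on simulated data.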

Additional observations from a re-analysis of the deposited data

How the results depend on the processing

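No paired analysis was possible because each group has 1 library, and for the same reason no replicate could be left out. The same 7 splicing genes passed the threshold under both other pseudocounts and all 3 rescalings (TPM, equal upper quartiles, median of all records at 0). These settings could hardly change that, so it is no check on the 7 genes. The genes nearest the thresholds lay at -0.65, -0.48, 0.33 and 0.86, and both libraries had nearly equal sums, medians and upper quartiles. The median of the splicing genes stayed below 0 under every setting, while 410 counts, medians and ratios stayed close and 38 shifted. With a pseudocount of 0.1, 999 records were lower and 1242 higher, while the splicing genes stayed at 4 lower and 3 higher. How close their share lies to that of all records therefore depends on the pseudocount. At that setting 1 exon junction gene was lower. After rescaling to TPM, 1198 records were higher and 1 exon junction gene was lower. TPM values are larger than the FPKM and 1 was still added, so this setting acts as a smaller pseudocount. With at least 1 FPKM in both libraries, 0 LSm genes were lower and 0 SMN-list genes were higher. With a mean of at least 10 FPKM, which tests fewer genes, 1 splicing gene was higher (1 hnRNP and 0 PRPF), 213 records were lower and 210 higher, 0 LSm genes and 1 PRPF19-list gene were lower, and 0 SMN-list genes were higher. With the largest exon under 50% of the transcript, which leaves fewer genes, 1 splicing gene was lower and 0 were higher. Lower counts there were 158 of all records, 0 SRSF, 0 HNRNP, 0 further snRNP, 0 LSm and 1 PRPF19-list gene. Higher counts were 198 of all records, 0 HNRNP, 0 PRPF, 1 further snRNP, 0 LSm, 0 SMN-list, 0 PRPF19-list, 0 SR-related and 0 other regulator genes. Medians there were -0.13 for SF3A, 0.030 for U2AF and 0.036 for LSm, and those of SF3A, SF3B (-0.03) and LSm changed sign there. Values within 0.01 of 0 (SRSF4 and the SMN-list median) also changed sign under rescaling or, for the median, without overlapping records. Without overlapping records, 1 SRSF gene was lower and the median of the U2AF genes left, U2AF2 and U2AF1L4, was 0.030. At a threshold of 1, 1 splicing gene was lower. Chosen after seeing the data, the SRSF sum without SRSF1 and SRSF3 had a ratio of 0.935. Also chosen then was the HNRNP sum without HNRNPF and HNRNPA1L2, with a ratio of 0.857. Apart from the smaller pseudocounts and the smaller number of genes, the cause of these shifts was not tested. Without replicates or depth, precision is unknown.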
